A study of Mus musculus with 8 samples.

Results

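Vitamin A handling in the liver was followed through 9 genes, measured on 8 arrays of whole-liver RNA. Hsd17b13 and Hsd17b11 encode related dehydrogenases of lipid droplets, and Aldh1a1, Aldh1a7, Adh1 and Rdh16 encode enzymes or relatives of enzymes that oxidise retinol and retinal. Rbp4, Lrat and Cyp26a1 encode proteins of retinol export, retinol storage and retinoic acid breakdown. The members were taken by gene symbol from the platform annotation, with the brightest probe set of each gene, out of 20738 gene entries in all. All 9 were found, each with 1 probe set that names no other gene. They were chosen with earlier results of the knockout against control comparison known, so their differences in that comparison are a description and carry no test.

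The mice were adult males, fasted for 16 h and then refed for 3 h before the liver was taken. In 4 of them the genotype is given as wild type, and in the other 4 as Rictor floxed, with the deletion placed in the liver by albumin-Cre. Albumin-Cre acts in hepatocytes, and which other liver cells keep Rictor was not examined. Rictor is a subunit of the kinase complex mTORC2 that acts on Akt downstream of insulin. The labels do not say whether the controls carry the floxed allele. The comparison asks how refed liver transcripts depend on hepatic Rictor.

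Dietary vitamin A reaches the liver as retinyl esters, is hydrolysed to retinol in hepatocytes, and is either exported on retinol-binding protein or passed to stellate cells, which store it as esters in lipid droplets. Retinol is oxidised reversibly to retinal by alcohol and short-chain dehydrogenases, and retinal irreversibly to retinoic acid by aldehyde dehydrogenases. Retinoic acid binds RAR and RXR receptors on DNA and is removed by CYP26 enzymes, whose own genes it induces.

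The values are log2 expression values made with RMA, 1 per probe set and array. The median over all probe sets lay between 6.90 and 7.03 on the 8 arrays, and the highest value on an array between 14.46 and 14.62. Hepatocyte markers fitted the labelled tissue. Their list mean over 8 of 8 measured markers lay between 13.81 and 13.88 on every array. The Rictor probe set averaged 9.40 ± 0.19 (SD, n = 4) over the controls, with the other group at 9.45 ± 0.22 (SD, n = 4), and since its position relative to the deleted exons was not examined it does not check the labels. The second group is therefore called knockout-labelled. Knockout-labelled array 1 stood apart. Its median over all probe sets, 6.90, was the lowest, against 6.97 to 7.03 on the other arrays. Its mean correlation with the rest of its group was 0.9883 and with the controls 0.9907, and limma's array weights gave it the lowest weight, 0.471. Igfbp1, which insulin represses in liver, read 7.76 on that array and 9.65 to 10.10 on the others of its group, while control 1 read 10.04 against 7.29 to 7.40 on the other controls. Whether these arrays carry each other's label was not tested, and the group means below follow the labels as given. Where dropping an array numbered 1 moved a named pathway gene past the threshold, that value is given beside it.

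The sequences just before the start sites of 4 members are shown first. Hsd17b13, Aldh1a1 and Cyp26a1 have the largest differences or spread among the 9 members, and Aldh1a7 is the near copy of Aldh1a1. Promoter sequences from RefSeq (GRCm38.p6) were found for all 9 members, 11 promoters in all. Positions count back from the RefSeq start site, with -1 as the base before it. Aldh1a1 and Aldh1a7 are neighbouring copies on chromosome 19 in opposite orientation. Over the 120 bases before their start sites, compared without gaps, 105 bases were identical (87.5%), with 1 identical run of 65 bases. The Aldh1a1 start used here is the downstream of its 2 RefSeq starts. Capitals mark the bases that differ between the copies, at chr19:20601848-20601967 (plus strand) for Aldh1a1 and chr19:20727557-20727676 (minus strand) for Aldh1a7.
Aldh1a1: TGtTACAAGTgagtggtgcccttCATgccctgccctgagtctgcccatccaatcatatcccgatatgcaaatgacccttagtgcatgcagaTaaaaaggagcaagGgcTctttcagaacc
Aldh1a7: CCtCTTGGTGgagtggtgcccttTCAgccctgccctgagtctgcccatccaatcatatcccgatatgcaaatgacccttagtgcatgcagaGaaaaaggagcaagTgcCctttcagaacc

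The Cyp26a1 promoter holds a DR5 element, the kind of repeat that RAR and RXR bind. A DR5 was searched as a pair of hexamers in the same direction and 5 bases apart, on both strands of the 250 bases before the start site. Each hexamer could be AGGTCA, with T allowed at the third base and G at the first. Such a match was present in 29 of 32851 promoters in the table (0.0883%), and Cyp26a1 was the 1 member with one, from -32 to -16. Capitals mark it in the stretch chr19:37697688-37697807 (plus strand).
Cyp26a1: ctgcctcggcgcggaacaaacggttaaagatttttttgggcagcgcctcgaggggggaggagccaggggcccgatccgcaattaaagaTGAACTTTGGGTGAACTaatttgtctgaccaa

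In the Hsd17b13 promoter the single hexamer AGGTCA was found on the opposite strand, from -96 to -91. It is in capitals in the stretch chr5:103977389-103977518 (minus strand). This hexamer occurred in 14.0% of promoters on either strand, and in those of Hsd17b13 and Rdh16 among the members.
Hsd17b13: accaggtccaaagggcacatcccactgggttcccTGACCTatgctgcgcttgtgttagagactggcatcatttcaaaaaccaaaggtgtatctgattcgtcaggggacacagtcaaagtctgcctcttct
The same hexamers 1 base apart (DR1) or 4 bases apart (DR4) were in 0.164% and 0.0670% of promoters and in none of the 11 promoters of members. The FoxO-type heptamer TGTTTAC was in 3.17% of promoters and in 1 of the 11, a promoter of Rbp4. These are matches of letters in a short window, and neither a match nor its absence says whether a factor binds.

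With all 8 arrays at equal weight, Hsd17b13 had the largest positive difference of the 9 genes, knockout-labelled minus control, and Aldh1a1 the largest negative one; Cyp26a1 was lower still with array weights, without both arrays numbered 1, and when control 1, control 4, knockout-labelled array 1 or knockout-labelled array 2 was dropped alone. Hsd17b13 encodes a retinol dehydrogenase that sits on the lipid droplets of hepatocytes. It read 12.22, 12.08, 12.14 and 12.15 on controls 1 to 4 and 12.34, 12.57, 12.90 and 12.65 on knockout-labelled arrays 1 to 4. All 4 knockout-labelled arrays were above all 4 controls, which lay close together, and knockout-labelled array 1 was the nearest to them. The means were 12.15 ± 0.059 (SD, n = 4) and 12.61 ± 0.23 (SD, n = 4), a log2 difference of 0.47 (SE 0.10 from the limma fit), or 1.38-fold. Hsd17b13 was the 1 member of 9 whose groups did not overlap. Over all genes the groups did not overlap in 4.45%, in 1.87% with the knockout-labelled group higher. Because the members were chosen on this contrast, nothing is read from that count.

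Hsd17b11, the neighbouring relative that is also found on lipid droplets, did not share this separation. It read 13.34, 13.20, 13.10 and 13.09 on the controls and 13.27, 12.93, 13.20 and 13.06 on the knockout-labelled arrays. The groups overlapped over most of their range, with a log2 difference of -0.067 (SE 0.085). In the RefSeq gene table Hsd17b11 is the next gene after Hsd17b13, followed by Nudt9, an ADP-ribose hydrolase, and the nearest measured gene on the other side is Klhl8. The log2 differences of those flanking genes were -0.071 (SE 0.14) for Nudt9 and 0.16 (SE 0.09) for Klhl8, neither past the threshold (limma adjusted p = 0.901 and 0.536).

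**Figure D1:**
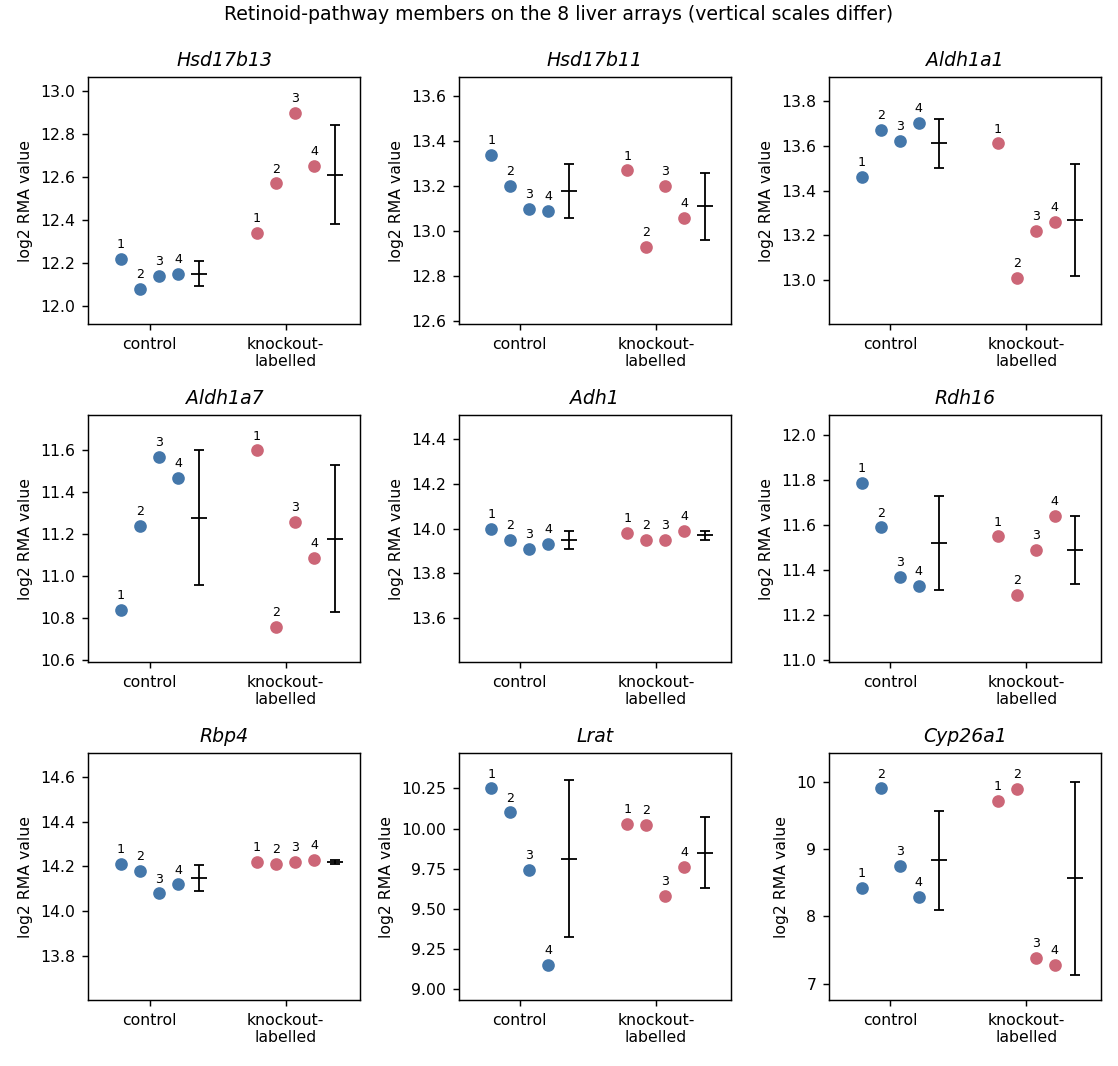
Log2 RMA values of the 9 members on each array, controls in blue and knockout-labelled arrays in red, with the replicate number above each point and the group mean and SD (n = 4) as the black bar; vertical scales differ between panels. Hsd17b13 separates the groups, from 12.08 to 12.22 in controls and from 12.34 to 12.90 on knockout-labelled arrays, while Cyp26a1 spans 7.28 to 9.91 with both groups mixed.

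Aldh1a1 encodes retinaldehyde dehydrogenase 1, the cytosolic enzyme that makes retinoic acid from retinal. It read 13.46, 13.67, 13.62 and 13.70 on controls 1 to 4 and 13.61, 13.01, 13.22 and 13.26 on knockout-labelled arrays 1 to 4. Knockout-labelled arrays 2 to 4 were below every control, and knockout-labelled array 1 lay among the controls. The means were 13.61 ± 0.11 (SD, n = 4) and 13.27 ± 0.25 (SD, n = 4), a log2 difference of -0.34 (SE 0.11), so that controls were 1.26-fold higher. The difference was -0.45 when knockout-labelled array 1 was dropped, and -0.50 when control 1 was dropped as well. It was -0.25 when knockout-labelled array 2, the lowest of the 8 arrays, was dropped.

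Aldh1a7, the neighbouring copy, had similar means in both groups, 11.28 ± 0.32 (SD, n = 4) for the controls against 11.18 ± 0.35 (SD, n = 4). Its values were 10.84, 11.24, 11.57 and 11.47 in controls and 11.60, 10.76, 11.26 and 11.09 on knockout-labelled arrays. The highest value of all 8 belonged to knockout-labelled array 1, and control 1 was the second lowest. The log2 difference of -0.10 (SE 0.18) rested on single arrays. Dropping control 1 gave -0.25, dropping knockout-labelled array 1 gave -0.24, dropping both gave -0.39, and dropping knockout-labelled array 2 gave 0.037. The transcripts of the copies are closely related, and how far the probes of one set also bind the other transcript was not tested. The measured genes on the outer sides of the pair, 1500015L24Rik and Tmc1, had log2 differences of -0.024 and 0.078 (limma adjusted p = 0.948 and 0.813).

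The retinol dehydrogenase genes Adh1 and Rdh16 had nearly equal means in the groups. Adh1, the main liver alcohol dehydrogenase, read 14.00, 13.95, 13.91 and 13.93 in controls and 13.98, 13.95, 13.95 and 13.99 on knockout-labelled arrays, a log2 difference of 0.019 (SE 0.046) that became -0.0013 after quantile normalisation. All 8 values lay within 0.089 of each other, near the top of the measured scale, where differences can be compressed. Rdh16, a short-chain dehydrogenase of retinol and steroids, read 11.79, 11.59, 11.37 and 11.33 in controls and 11.55, 11.29, 11.49 and 11.64 on knockout-labelled arrays. The groups overlapped, the log2 difference was -0.029 (SE 0.11), and it took the other sign without control 1 (0.061).

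Rbp4 encodes the plasma carrier on which the liver exports retinol. It read 14.21, 14.18, 14.08 and 14.12 in controls and 14.22, 14.21, 14.22 and 14.23 on knockout-labelled arrays. The knockout-labelled arrays lay at the upper end of the control range or just above it, 3 of them above every control, for a log2 difference of 0.07 (SE 0.046). This is 1.05-fold, again near the top of the scale.

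Lrat encodes lecithin retinol acyltransferase, which esterifies retinol for storage and in liver is made mainly by stellate cells. It read 10.25, 10.10, 9.74 and 9.15 in controls and 10.03, 10.02, 9.58 and 9.76 on knockout-labelled arrays. The controls spanned more than the whole range of the other group, and the log2 difference was 0.039 (SE 0.21), with values from -0.18 without control 4 to 0.18 without control 1. The 10 stellate cell markers, all measured, had a list mean of 9.62, 9.58, 9.50 and 9.42 on controls 1 to 4, in the same order as Lrat. The Kupffer cell list (9.63, 9.56, 9.14 and 8.93) and the endothelial list (10.49, 10.41, 10.35 and 10.12) had that order on the controls too. On knockout-labelled arrays 1 to 4 the stellate list mean was 9.57, 9.50, 9.48 and 9.46, with array 4 the lowest, whereas Lrat was lowest on array 3. None of the 10 markers passed the threshold between groups (lowest limma adjusted p = 0.471), as none of all 20738 genes did, so this does not show equal stellate cell content. The part of the stellate cell content in the Lrat values was not tested, and in whole liver fewer cells of a type and less RNA per cell cannot be told apart.

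Cyp26a1, the enzyme that breaks down retinoic acid and a textbook retinoic acid target, varied most between mice. It read 8.42, 9.91, 8.76 and 8.29 in controls and 9.73, 9.90, 7.38 and 7.28 on knockout-labelled arrays. Control 2 and knockout-labelled arrays 1 and 2 were high, knockout-labelled arrays 3 and 4 were low, and the remaining controls lay between. From the lowest to the highest array this was 6.19-fold. The pooled SD within groups was 1.14, and 0.0482% of all genes had a larger one. That share was 1.79% for Lrat, 2.50% for Aldh1a7, 27.5% for Hsd17b13, 19.2% for Aldh1a1 and 99.8% for Adh1. The measured values of the members thus range from among the most to among the least variable within groups. Adh1 lies near the top of the scale, where the spread can be compressed. The group means of Cyp26a1 were 8.84 ± 0.74 (SD, n = 4) and 8.57 ± 1.44 (SD, n = 4), a log2 difference of -0.27 (SE 0.58). Single arrays moved it from -0.72 without knockout-labelled array 2 to 0.16 without knockout-labelled array 4, it was -0.66 when knockout-labelled array 1 was dropped and -0.80 when both arrays numbered 1 were, and with array weights it was -1.13. Those weights were highest for control 2 (2.32), the array with the highest Cyp26a1 value, and without control 2 the difference was 0.081.

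**Figure D2:**
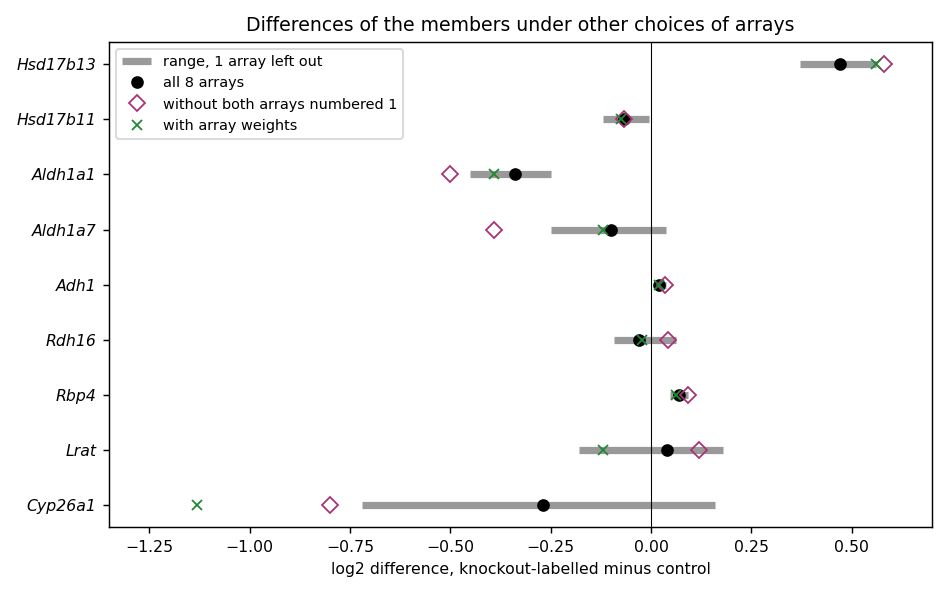
Log2 difference, knockout-labelled minus control, for each member with all 8 arrays (black), the range over leaving out 1 array (grey bar), without both arrays numbered 1 (open diamond) and with array weights (cross). Hsd17b13 stays between 0.37 and 0.56 and Aldh1a1 between -0.45 and -0.25 with 1 array left out, whereas the bars of Aldh1a7, Rdh16, Lrat and Cyp26a1 cross 0.

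Genes whose profiles over the 8 arrays resembled those of Hsd17b13, Aldh1a1 and Cyp26a1 were ranked by Pearson correlation among 11265 other genes at or above the median brightness. The correlations are descriptions over 8 arrays that share the group difference and the outlying knockout-labelled array 1. With so many genes compared, high values arise readily. For Hsd17b13 the nearest were Rnf149, an E3 ubiquitin ligase (r = 0.988), Pik3c2a, a class II phosphoinositide 3-kinase (r = 0.981), and Mvp, the major vault protein (r = 0.981). Mvp had the widest range of these, from 8.92 to 9.20 in controls and from 9.23 to 10.08 on knockout-labelled arrays, with knockout-labelled array 1 just above control 1.

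For Aldh1a1 the nearest were the mitochondrial carrier gene Slc25a16 (r = 0.989), Mr1, an antigen-presenting molecule (r = 0.983), and Napepld, a phospholipase D of N-acylethanolamine synthesis (r = 0.983). Napepld read 8.01 to 8.32 in controls, 8.39 on knockout-labelled array 1 and 7.0 to 7.51 on knockout-labelled arrays 2 to 4. It thus had the position of knockout-labelled array 1 among or above the controls in common with Aldh1a1.

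For Cyp26a1 the nearest was Cyp2c23, an arachidonic acid epoxygenase (r = 0.983), and the rank order of the 8 arrays was the same in both genes (Spearman rho = 1.00). The range of Cyp2c23 was far narrower, from 13.02 to 13.27. Nr0b2, the orphan receptor SHP that represses bile acid synthesis, followed with r = 0.901 and Bin3 with r = 0.878. Leaving out the 2 arrays farthest from the median of Cyp26a1 gave r = 0.987, 0.892 and 0.806 for the 3 genes. None of these 3 genes differed between the groups by more than 0.069 in mean.

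**Figure D3:**
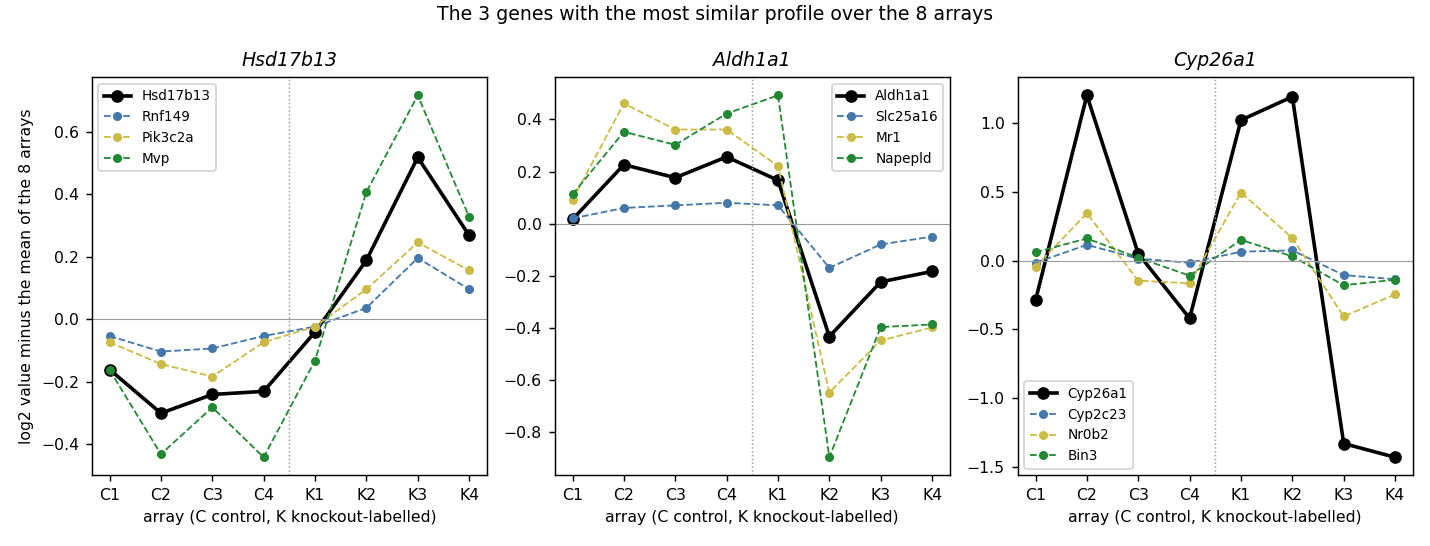
Log2 values minus the mean of the 8 arrays for Hsd17b13, Aldh1a1 and Cyp26a1 (black) and the 3 genes with the highest correlation to each (coloured); lines only join the points of 1 gene. Mvp spans a wider range than Hsd17b13, and Cyp2c23 follows the order of Cyp26a1 over a range of 13.02 to 13.27.

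Across the rest of the pathway, 70 of 72 listed genes were measured, and 0 passed the limma test at an adjusted p of 0.05 with all 8 arrays at equal weight. Over all genes 0 of 20738 passed (0.0%). At an unadjusted limma p under 0.05 there were 9 of the 70 (12.9%), 4 with a higher and 5 with a lower mean, against 2159 of all genes (10.4%). The median log2 difference of the 70 was 0.03, against -0.020 over all genes. The groups did not overlap in 3 of the 70 (4.29%), each with the knockout-labelled group higher. Over all genes this share was 4.45%, and 1.87% with that group higher. With array weights 4 of the 70 passed, against 3.40% of all genes. Without knockout-labelled array 1 there were 8, against 4.19%, and without control 1 there was 1, against 0.545%. Without both arrays numbered 1 there were 15, against 7.25%. Knockout-labelled array 1 was known to lie toward the controls over all probe sets. Control 1 lay toward the other group in Igfbp1 and some listed genes. Its mean correlation was 0.9909 with its own group and 0.9906 with the other. Passing without these arrays is therefore not a separate test.

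**Figure D4:**
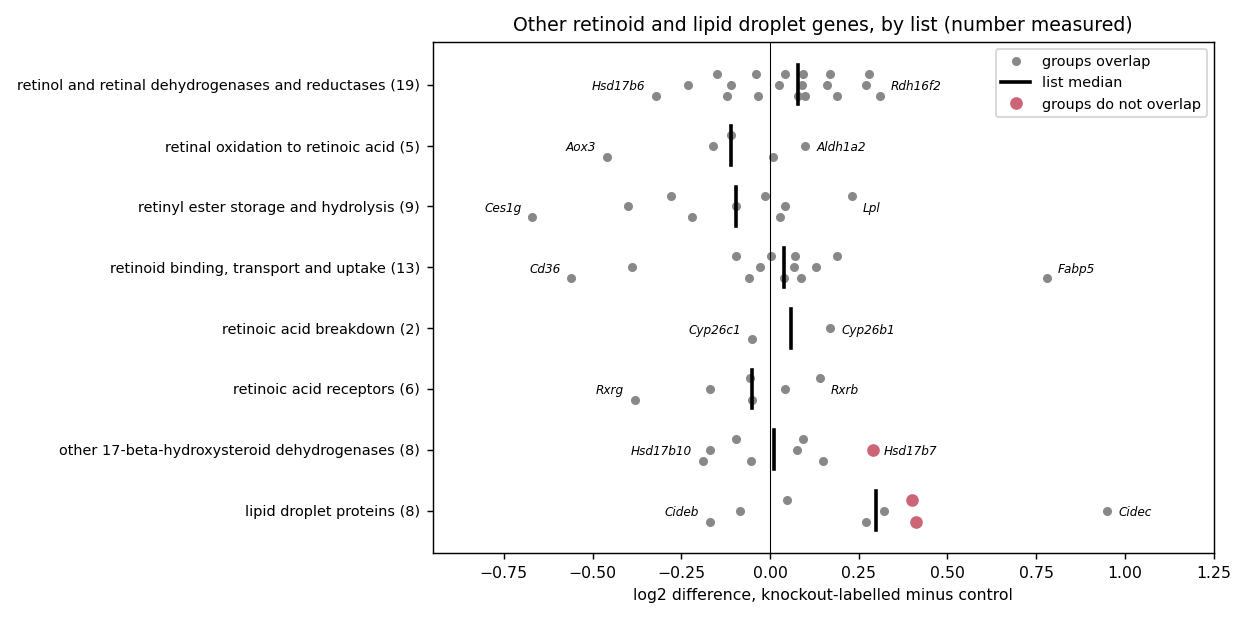
Log2 difference, knockout-labelled minus control, of each measured gene in the 8 lists (number measured in brackets), with the list median as a black line; red points are genes whose groups do not overlap, and the lowest and highest gene of each list are named. The list of lipid droplet proteins has the highest median, 0.30, and Ces1g at -0.67 and Cidec at 0.95 are the lowest and highest values.

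Of the 8 lipid droplet protein genes, which share a location with the Hsd17b13 protein, 6 were higher in mean in the knockout-labelled group, as were 43.1% of all genes. Their median log2 difference was 0.30. Plin2, the perilipin that coats most hepatocyte droplets, read 12.84, 12.51, 12.64 and 12.67 in controls and 13.05, 12.87, 13.41 and 12.94 on knockout-labelled arrays, without overlap. Its log2 difference was 0.40 (SE 0.11; limma adjusted p = 0.211). Plin5, the perilipin of oxidative tissues that joins droplets to mitochondria, read 9.41, 9.52, 9.62 and 9.31 in controls and 9.63, 9.81, 10.19 and 9.87 on knockout-labelled arrays. Its groups were separated only narrowly, and the log2 difference was 0.41 (SE 0.12; limma adjusted p = 0.254). In both perilipins, as in Hsd17b13, the highest value belonged to knockout-labelled array 3. Array weights brought Plin2 and Plin5 past the threshold (0.49 and 0.47; limma adjusted p = 0.0361 and 0.0409), and dropping knockout-labelled array 1 did so for Plin5 (0.49; limma adjusted p = 0.0381). Dropping knockout-labelled array 3 gave 0.29 for Plin2 and 0.30 for Plin5 (limma adjusted p = 0.565 and 0.647).

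Cideb, which helps load lipid onto lipoproteins, had a lower mean (-0.17, SE 0.067; limma adjusted p = 0.380). Cidec, a droplet fusion protein named here after its values were seen, had the largest difference of the list (0.95) and a wide spread. It read 10.39 on control 1 against 8.05 to 9.09 on the other controls, and 9.13 on knockout-labelled array 1 against 9.91 to 11.35 on the others of its group. With both arrays numbered 1 dropped, Cidec was among the 15 genes that passed, as were Plin2 (0.47; limma adjusted p = 0.0308) and Plin5 (0.47; limma adjusted p = 0.0358).

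Of the 19 other genes of retinol and retinal dehydrogenases and reductases, 12 had a higher and 7 a lower mean, with a median log2 difference of 0.08. None separated the groups. The smallest p-values belonged to Rdh14, an all-trans-retinol dehydrogenase (0.28, SE 0.12), Rdh13, its mitochondrial relative (-0.23, SE 0.10), and Rdh7 (-0.15, SE 0.069), with limma adjusted p = 0.411, 0.433 and 0.459. Retsat, which saturates retinol, and Dhrs3, which reduces retinal back to retinol, differed by 0.078 and 0.098; both were named after their values were seen.

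Of the 5 other genes of retinal oxidation, 3 had a lower mean, as Aldh1a1 did. The aldehyde oxidase gene Aox3 read 11.75, 12.70, 12.57 and 12.53 in controls and 12.49, 11.55, 11.48 and 12.20 on knockout-labelled arrays. Control 1 and knockout-labelled array 1 each lay toward the other group, and the log2 difference of -0.46 (SE 0.24; limma adjusted p = 0.505) was -0.86 without both (limma adjusted p = 0.00469). Aox1 differed by -0.16 (SE 0.093) and Aldh8a1, which oxidises 9-cis-retinal, by -0.11 (SE 0.077), with limma adjusted p = 0.555 and 0.630.

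Among the 9 genes of retinyl ester storage and hydrolysis, 6 had a lower mean, and the 4 carboxylesterase genes all did. Carboxylesterases of this family hydrolyse esters in the endoplasmic reticulum. Ces1g read 11.17, 11.84, 12.04 and 11.79 in controls and 12.05, 10.43, 11.01 and 10.65 on knockout-labelled arrays. Knockout-labelled array 1 was the highest of all 8, and the other 3 arrays of its group were below every control. The log2 difference was -0.67 (SE 0.29; limma adjusted p = 0.424), and -1.01 without knockout-labelled array 1 (limma adjusted p = 0.0144). It was -1.19 with both arrays numbered 1 dropped (limma adjusted p = 0.000262). Ces1f differed by -0.28 (SE 0.14) and Ces1d by -0.22 (SE 0.11; limma adjusted p = 0.503 and 0.482). Ces1f passed when knockout-labelled array 1 was dropped (-0.44; limma adjusted p = 0.0261) and was -0.17 when array 3 of that group was dropped. With both arrays numbered 1 dropped, Ces1f was at -0.50 and Ces1d at -0.36 (limma adjusted p = 0.00447 and 0.0156), while Ces1d was at -0.12 when knockout-labelled array 2 was dropped. The family members are near copies, and how far their probes share signal was not tested.

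Of the 13 measured genes of retinoid binding, transport and uptake, 8 had a higher mean, and the median log2 difference was 0.04. Bco2, the mitochondrial enzyme that cleaves carotenoids, read 9.17, 9.16, 8.99 and 9.37 in controls and 9.14, 8.63, 8.72 and 8.64 on knockout-labelled arrays. Its log2 difference was -0.39 (SE 0.13; limma adjusted p = 0.285), and array weights brought it past the threshold (-0.45; limma adjusted p = 0.0381). It also passed when knockout-labelled array 1 (-0.51; limma adjusted p = 0.0197) or both arrays numbered 1 (-0.51; limma adjusted p = 0.0159) were dropped. Fabp5, a carrier of fatty acids and retinoic acid, differed by 0.78 (SE 0.40; limma adjusted p = 0.501), and its second probe set gave 0.73. Control 1 read 9.50 for Fabp5 against 6.91 to 7.96 on the other controls, and without it the difference was 1.28 (limma adjusted p = 0.0301). It was 1.31 with both arrays numbered 1 dropped (limma adjusted p = 0.00289) and 0.42 with control 4 dropped. Cd36, a scavenger receptor for fatty acids and carotenoids, differed by -0.56 (SE 0.31; limma adjusted p = 0.546). Knockout-labelled array 1 read 11.20 for Cd36, the highest of the 8 arrays. Dropping it gave -0.93 (limma adjusted p = 0.0168), dropping both arrays numbered 1 gave -1.07 (limma adjusted p = 0.00162), and dropping knockout-labelled array 2 gave -0.29.

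Of the 6 retinoid receptor genes, 4 had a lower mean, with a median of -0.05. Rxrg differed by -0.38 (SE 0.18; limma adjusted p = 0.471), Rarg by -0.17 (SE 0.092; limma adjusted p = 0.534) and Rxrb by 0.14 (SE 0.098; limma adjusted p = 0.632). Rxrg read 9.52 on knockout-labelled array 1, the highest of all 8, and 8.47 to 8.77 on the others of its group. Its difference was -0.59 when that array was dropped (limma adjusted p = 0.0111), -0.57 when both arrays numbered 1 were (limma adjusted p = 0.00868) and -0.25 when knockout-labelled array 4 was. The other retinoic acid hydroxylase genes, Cyp26b1 and Cyp26c1, differed by 0.17 (SE 0.23) and -0.052 (SE 0.073; limma adjusted p = 0.844 and 0.853).

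Of the 8 other 17-beta-hydroxysteroid dehydrogenase genes measured, 4 had a higher and 4 a lower mean. Hsd17b7, which acts in cholesterol synthesis, separated the groups, as Hsd17b13 did. It read 11.14, 10.88, 11.14 and 11.01 in controls and 11.20, 11.22, 11.45 and 11.47 on knockout-labelled arrays, a log2 difference of 0.29 (SE 0.097; limma adjusted p = 0.287). Array weights brought it past the threshold (0.40; limma adjusted p = 0.0341), as did dropping both arrays numbered 1 (0.37; limma adjusted p = 0.0384). Hsd17b10, a mitochondrial enzyme of isoleucine breakdown and transfer RNA processing, differed by -0.19 (SE 0.08; limma adjusted p = 0.407), and knockout-labelled array 1 (13.04) lay among the controls. It passed when that array (-0.27; limma adjusted p = 0.0283) or both arrays numbered 1 (-0.28; limma adjusted p = 0.0163) were dropped. Hsd17b3 differed by 0.15 (SE 0.085; limma adjusted p = 0.537).

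Markers of other liver cell types gave no call between groups, but neither did any of the 20738 genes. The absence of a call therefore does not show that cell content was alike. The list means of Kupffer cell markers lay from 8.93 to 9.63 in controls and from 9.0 to 10.13 on knockout-labelled arrays, and those of endothelial markers from 10.12 to 10.49 and from 10.18 to 10.55, with 6 of 6 markers measured in each. Cholangiocyte markers (4 of 5 measured) lay from 7.46 to 7.90 in controls and read 7.82, 7.40, 7.37 and 7.36 on knockout-labelled arrays 1 to 4. Knockout-labelled array 1 thus lay among the controls and the others of its group below them, with 2 markers higher and 2 lower in mean. Blood cell markers (4 of 7 measured by a probe set of 1 gene) lay from 7.96 to 8.26 and from 7.71 to 8.15, and all 4 were lower in mean in the knockout-labelled group. The arrays give no detection call, so no marker can be called absent, and the part of these cell types in the values above was not tested.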

How the data were processed

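Liver RNA of 8 mice was measured on Affymetrix Mouse Gene 1.0 ST arrays. The deposited log2 values, 1 per probe set, were made by the authors with Affymetrix Expression Console, RMA and Partek, per the submitters' processing notes, which give no version, role or order. The log2 base was read from the values and from RMA. RMA equalises arrays, so a shift of most genes would not be seen. Of 35556 probe sets, 23410 had a gene symbol in the platform annotation (21789 exactly 1) and were fitted with limma 3.58.1 in R 4.3.3 (lmFit, eBayes with trend), two-sided, with Benjamini-Hochberg adjustment and a threshold of 0.05. A gene was counted by its brightest probe set. Symbols were matched by Entrez identifier to RefSeq for 21698 probe sets. Members and lists were chosen with earlier results of these data known. Named genes are the members, the 3 genes of each of 8 lists with the smallest p, flanking genes and the 3 most similar profiles of 3 members. Some listed genes are not analysed here. The fit was checked on simulated data. Precision is limited by the 4 arrays in each group, and 17 alternatives were tried.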

Additional observations from a re-analysis of the deposited data

Results flagged for a closer look

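In 64 groups of 4 arrays, covering the members and the named pathway genes, 4 arrays lay far from the rest of their group, where chance alone flags about 1 in 20 groups. None of the 4 belonged to a member. In Aldh8a1 knockout-labelled array 1 read 13.05 against 12.77 to 12.82 on the others of its group. In Bco2 that array read 9.14 against 8.63 to 8.72, and in Hsd17b10 it read 13.04 against 12.71 to 12.73. In Aox1 knockout-labelled array 4 read 11.06 against 10.87 to 10.89.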

How the results depend on the processing

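The number of genes called, 0 with all 8 arrays, was 706 with array weights and 1504 without both arrays numbered 1, and 0 to 868 when single arrays were dropped (868 without knockout-labelled array 1, 113 without control 1). Pathway genes called, 0 of 70, were 4, 15 and 0 to 8 in the same order. No other alternative called a gene. Replicate numbers did not pair the arrays (correlations of deviations -0.079, -0.13, -0.0332 and 0.0784), and the replicate block called 0 genes. Each replicate number holds 1 array of each group, so the block cannot change a difference of means and is no check on the members' differences. The members' differences depended on the arrays used. That of Cyp26a1 went from -0.27 (SE 0.58) to -1.13 with array weights. Without both arrays numbered 1, Aldh1a7 went from -0.10 (SE 0.18) to -0.39 and Aldh1a1 from -0.34 (SE 0.11) to -0.50. Hsd17b13 went from 0.47 (SE 0.10) to 0.58 in that setting. The member values were tried under 13 alternatives, and no member had a second probe set to try. Signs changed in at least 1 of the 13 for Aldh1a7, Adh1, Rdh16, Lrat and Cyp26a1. Among named pathway genes, Cyp26b1 turned to -0.016 without knockout-labelled array 2 and reached 0.36 without control 1.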
